A study of Mus musculus with 7 samples.

Results

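The D-type cyclins (Ccnd1, Ccnd2, Ccnd3), their kinase partners Cdk4 and Cdk6, the CDK inhibitors Cdkn1a, Cdkn1b, Cdkn2c and Cdkn2d, and the pocket protein gene Rbl2 were followed in mouse splenic NK cell preparations cultured with or without interleukin 2. The members were taken by gene symbol from probes that the platform annotation assigns to 1 symbol, with the brightest probe kept for each gene. This gave 9 of the 10 genes, out of 19752 genes tested in all. Cdkn1a was not analysed here, because its probe carries a further gene symbol. The cells of both groups came from spleens of male C57BL/6 mice aged 6 weeks, carry the phenotype label NK1.1, and were enriched by EasySep negative selection. In this procedure other cell types are removed, so that cells escaping removal remain in the culture. The untreated group (3 arrays, replicates 2 to 4) received no cytokine, and the IL2 group (4 arrays, replicates 1 to 4) received IL2 at 250 U/ml, both labelled as 8 h. The platform was the Affymetrix Mouse Gene 1.0 ST array, with 1 array for each RNA sample. Nothing in the labels says that replicates were separate mice or cultures, so the p-values cover the spread between the samples alone, which may be technical.

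D-type cyclins bind and activate CDK4 and CDK6 in G1, the phase before DNA synthesis, and the active kinases phosphorylate RB and its relatives p107 (Rbl1) and p130 (Rbl2), which releases E2F transcription factors. Inhibitors of the INK4 family, such as p18 (Cdkn2c) and p19 (Cdkn2d), bind CDK4 and CDK6, while the CIP/KIP inhibitor p27 (Cdkn1b) binds cyclin-CDK complexes and is abundant in resting lymphocytes. IL2 is a growth factor for lymphocytes, and cyclins D2 and D3 are the D-type cyclins best known from them.

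Of the 9 genes, Ccnd2 and Cdk6 rose with IL2, and 7 did not pass the test. Ccnd2 was 5.89-fold and Cdk6 2.69-fold higher. None fell by limma (adjusted p under 0.05), and 5 of the 9, these 2 included, had an unadjusted p under 0.05, as did 13.5% of all genes. Over all genes 2.98% passed the same test, 2.08% as higher and 0.901% as lower. The median log2 fold change was 0.33 for the 9 genes and -0.015 for all genes. The arrays of both groups did not overlap for Ccnd2, Cdk4 and Cdk6 (higher with IL2) and for Cdkn1b (lower), while the same was true of 9.63% of all genes (6.25% higher and 3.38% lower). Ccnd1, Ccnd3, Cdkn2c, Cdkn2d and Rbl2 overlapped between the groups. Without IL2 replicate 1, Ccnd3 and Cdk4 passed as well, so that 4 genes were higher. The 3 arrays whose titles leave out the time include 1 untreated array, so the spread of that group cannot be judged there. Over them the log2 fold change was 2.15 for Ccnd2 and 1.44 for Cdk6.

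Promoter sequence from RefSeq (build GRCm38.p6) was matched for 7 of the 9 genes, and Ccnd1 and Ccnd2 had no entry. The sequences shown are the 250 bases before the annotated start of Cdk4, Cdk6 and Cdkn1b, the genes with an entry whose arrays did not overlap between the groups. Capitals mark the E-box CACGTG, the sequence that MYC and other basic helix-loop-helix factors bind. The Cdk4 stretch is chr10:127063285-127063534, the Cdk6 stretch chr5:3343643-3343892 and the Cdkn1b stretch chr6:134920151-134920400, all on the plus strand.
Cdk4: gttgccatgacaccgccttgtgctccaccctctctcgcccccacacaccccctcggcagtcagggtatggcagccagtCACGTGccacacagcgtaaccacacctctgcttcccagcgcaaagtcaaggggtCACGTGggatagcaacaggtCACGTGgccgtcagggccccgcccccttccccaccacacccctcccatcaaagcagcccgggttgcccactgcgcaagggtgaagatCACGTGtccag
Cdk6: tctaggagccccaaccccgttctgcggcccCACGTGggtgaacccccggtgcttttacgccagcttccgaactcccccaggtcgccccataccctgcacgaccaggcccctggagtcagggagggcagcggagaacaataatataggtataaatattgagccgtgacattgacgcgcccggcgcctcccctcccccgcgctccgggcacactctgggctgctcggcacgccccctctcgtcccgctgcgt
Cdkn1b: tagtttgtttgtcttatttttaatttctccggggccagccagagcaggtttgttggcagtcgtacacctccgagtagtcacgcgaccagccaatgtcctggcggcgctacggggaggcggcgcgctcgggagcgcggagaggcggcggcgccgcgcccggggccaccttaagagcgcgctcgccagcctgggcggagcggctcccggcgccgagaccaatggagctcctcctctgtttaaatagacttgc

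The Cdk4 stretch held 4 E-boxes, starting 172, 118, 98 and 11 bases before the start. The Cdk6 stretch held 1, starting 220 bases before the start, and the Cdkn1b stretch held 0. The windows of Ccnd3, Cdkn2c, Cdkn2d and Rbl2 also held 0. Of 32851 upstream windows of this length, 6.02% held at least 1 E-box and 7 windows (0.0213%) held at least 4; the limit of 4 was set after the count in Cdk4 was seen. The STAT motif TTCNNNGAA, present in 7.02% of windows, and the E2F motifs TTTGGCGC (0.417%) and TTTCCCGC (0.895%) were searched on both strands and had no match in any window of the 7 genes. The FOXO motif GTAAACA (3.17% of windows) had 1 match, 243 bases before the start in 1 of the 2 windows of Ccnd3. These are matches of letters only, and the arrays do not measure binding.

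The signs of other cells moved over the same arrays, and they are given here because the changes cannot be assigned to NK cells from array values alone. In such bulk RNA, fewer cells of a type and less RNA per cell cannot be told apart. Over all genes 2.08% passed limma's test as higher and 0.901% as lower. An unadjusted p under 0.05 was found in 13.5% of them, and a positive log2 fold change in 45.6%. The mean log2 intensity of the 10 NK cell markers was 8.52 to 9.27 in the untreated arrays and 10.37 to 10.67 with IL2. Of the 10, 6 rose, and 8 had an unadjusted p under 0.05. Gzmb and Prf1 are among these markers and are themselves effector genes of NK cells. Their log2 fold changes were 5.07 and 2.83, against a median of 1.26 for the 10 markers. Klrd1 (0.086) and Klre1 (0.46) overlapped between the groups (named after their values were seen). Of 13 macrophage and monocyte markers 5 fell, with a mean of 8.70 to 8.91 untreated and 7.76 to 8.31 with IL2. In this list 8 had an unadjusted p under 0.05, and 2 had a positive log2 fold change. Of 9 B cell markers 1 fell, and their mean was 10.12 to 10.47 untreated and 9.85 to 9.96 with IL2. Among them 5 had an unadjusted p under 0.05, and 0 had a positive log2 fold change. Of 10 neutrophil markers 1 fell (8.87 to 9.41 untreated and 7.83 to 8.70 with IL2). For neutrophils 5 markers had an unadjusted p under 0.05, and 0 had a positive log2 fold change. Of 8 dendritic cell markers 1 fell (7.54 to 7.72 and 7.28 to 7.40), with a median log2 fold change of -0.045. For dendritic cells 4 markers had an unadjusted p under 0.05, and 4 had a positive log2 fold change. Of 5 erythroid markers 1 rose, the transferrin receptor gene Tfrc (0.94), which dividing lymphocytes also use, and of 8 stromal and endothelial markers limma called 0, with 2 at an unadjusted p under 0.05. The defining B cell genes Cd79a and Cd79b had means of 12.05 and 12.41 in the untreated arrays, and the myeloid gene Lyz2 had 12.66 (all named after their values were seen). With IL2 their log2 fold changes were -0.12, -0.29 and -1.77, and limma called only Lyz2 among them (adjusted p = 0.00109). Of 9 T cell markers 0 passed limma's test in either direction, with 0 at an unadjusted p under 0.05. Their mean was 7.42 to 7.45 in the 3 arrays whose titles leave out the time (untreated replicate 2, IL2 replicates 1 and 2) and 7.95 to 8.22 in the 4 whose titles give it. The part of these cells in the changes below was not tested.

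Ccnd2 encodes cyclin D2. Its log2 intensity was 8.93, 8.22 and 8.51 in untreated replicates 2, 3 and 4 and 10.89, 11.25, 11.05 and 11.24 in IL2 replicates 1 to 4. The lowest IL2 array lay 1.96 above the highest untreated array, so the groups were far apart. The means were 8.55 ± 0.35 (SD, n = 3) and 11.11 ± 0.17 (n = 4), a log2 fold change of 2.56 (SE 0.17, limma's adjusted p = 0.000646). This was the rise ranked 22 from the top among all 19752 genes. The difference was 2.33, 2.83 and 2.74 between arrays numbered 2, 3 and 4, and it was 2.78 in arrays whose titles give the time, and 2.15 in the others. With each array left out in turn the log2 fold change of Ccnd2 was 2.39 to 2.75, at limma's adjusted p-values of 0.000949 to 0.00969.

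Ccnd3 encodes cyclin D3, which is widely used in developing and activated lymphocytes. Its log2 intensity was 9.17, 9.20 and 9.62 in untreated replicates 2 to 4 and 9.33, 9.97, 10.33 and 10.35 in IL2 replicates 1 to 4. IL2 replicate 1 lay inside the untreated range, while the other IL2 arrays lay above it. The log2 fold change was 0.67 (SE 0.26, 95% interval 0.071 to 1.27, limma's adjusted p = 0.300), and without IL2 replicate 1 it was 0.89 (limma's adjusted p = 0.0416). Ccnd3 was 0.94 higher with IL2 in arrays whose titles give the time, and 0.48 higher in the others. The T cell markers were higher in the first set, in untreated and IL2 arrays alike, and their part in the Ccnd3 values was not tested.

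Ccnd1 encodes cyclin D1, the D-type cyclin of many adherent and epithelial cells. Its mean signal was at the 65.7th percentile of all genes. The log2 intensity was 7.38, 7.36 and 7.79 in the untreated arrays and 7.62, 7.62, 8.15 and 7.98 in the IL2 arrays, so that untreated replicate 4 lay above IL2 replicates 1 and 2. The log2 fold change was 0.33 (SE 0.17, 95% interval -0.064 to 0.73, limma's adjusted p = 0.489).

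The within-array log2 ratio of Ccnd2 to Ccnd3 was 1.89 higher in the IL2 arrays than in the untreated ones, and that of Ccnd2 to Ccnd1 was 2.23 higher. For both ratios every IL2 array lay above every untreated array, and the two-sided exact permutation p was 0.0571 (0.0762 after Benjamini-Hochberg over the 4 pairs of genes compared), the smallest that 35 arrangements of these arrays allow. Such a ratio shows unequal change of 2 probes, with no statement about absolute amounts of the cyclins.

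**Figure D1:**
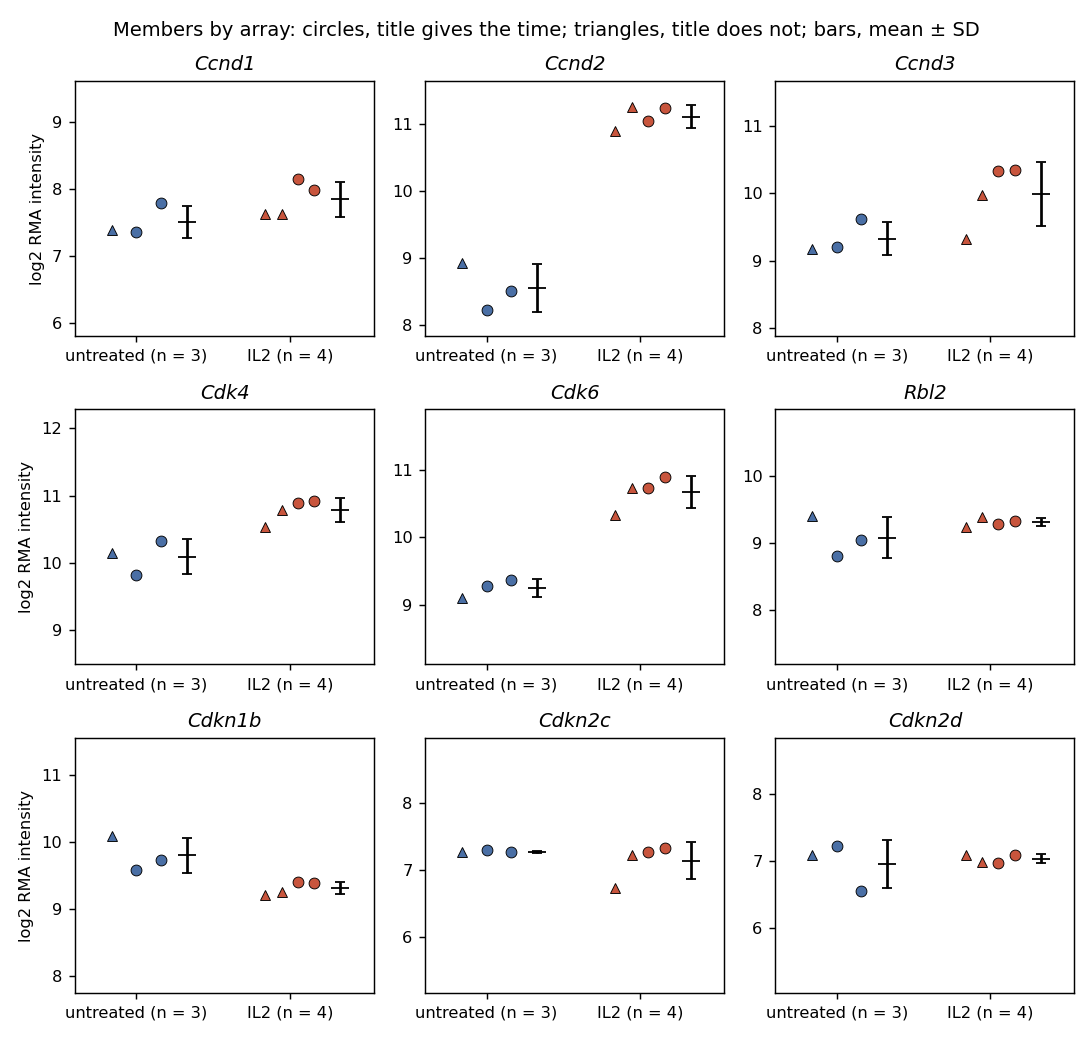
Log2 RMA intensity (vertical axis, the same span in each panel) of the 9 genes in the 3 untreated arrays (blue) and 4 IL2 arrays (red), with circles for arrays whose titles give the time, triangles for the others, and bars for the mean ± SD. The groups stand apart for Ccnd2, Cdk6, Cdk4 and Cdkn1b and overlap for the other 5 genes.

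Cdk6 and Cdk4 encode the kinases that the D-type cyclins activate. The log2 intensity of Cdk6 was 9.10, 9.28 and 9.36 in untreated replicates 2 to 4 and 10.33, 10.74, 10.74 and 10.90 in IL2 replicates 1 to 4. All IL2 arrays lay above all untreated arrays, by at least 0.97. The means were 9.25 ± 0.14 (SD, n = 3) and 10.68 ± 0.24 (n = 4), a log2 fold change of 1.43 (SE 0.14, limma's adjusted p = 0.00244). Arrays with the same number differed by 1.64, 1.45 and 1.54, and the value by title style was 1.50 with the time and 1.44 without it. With each array left out in turn the rise of Cdk6 was 1.35 to 1.54, at limma's adjusted p-values of 0.00166 to 0.0188.

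Cdk4, whose upstream stretch held the 4 E-boxes, had a log2 intensity of 10.14, 9.81 and 10.33 in the untreated arrays and 10.53, 10.79, 10.89 and 10.91 with IL2. The groups did not overlap, with a gap of 0.21. The log2 fold change was 0.69 (SE 0.15, 95% interval 0.35 to 1.03), and it did not pass over all genes (limma's adjusted p = 0.0537). It passed without IL2 replicate 1 (0.77, limma's adjusted p = 0.0387), when the arrays were quantile normalized (0.55, limma's adjusted p = 0.0170), with arrays centred on their medians (0.72, limma's adjusted p = 0.0374) and in the brighter genes, those at or above the median signal over all genes (limma's adjusted p = 0.0276). Leaving out any 1 other array gave 0.55 to 0.81 without passing. The within-array ratio of Cdk6 to Cdk4 was 0.74 higher on the log2 scale with IL2, with no overlap between the groups (two-sided exact permutation p = 0.0571, the smallest possible here, and 0.0762 after Benjamini-Hochberg).

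**Figure D2:**
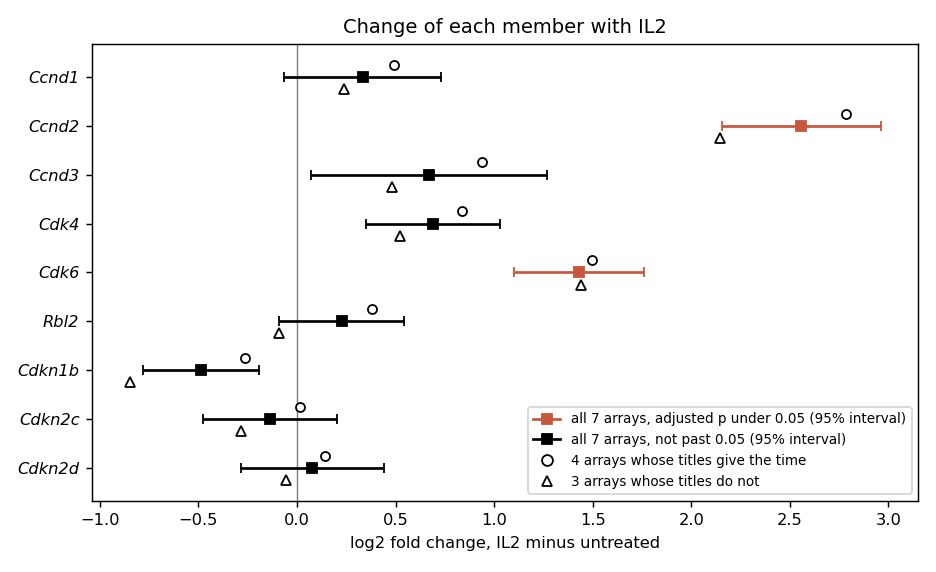
Log2 fold change of each gene, IL2 minus untreated (horizontal axis), with squares and 95% intervals from limma over all 7 arrays (red where the adjusted p was under 0.05). Open circles are the 4 arrays whose titles give the time, open triangles the 3 whose titles leave it out. Ccnd2 (2.56) and Cdk6 (1.43) are the red squares, and Rbl2, Cdkn2c and Cdkn2d lie on different sides of 0 in the title styles.

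Cdkn1b, which encodes p27, was the inhibitor whose arrays separated. Its log2 intensity was 10.08, 9.58 and 9.74 in untreated replicates 2 to 4 and 9.22, 9.25, 9.40 and 9.39 in IL2 replicates 1 to 4. Every IL2 array lay below every untreated array, with a gap of 0.18. The log2 fold change was -0.49 (SE 0.13, 95% interval -0.78 to -0.19), which did not pass over all genes (limma's adjusted p = 0.112), and it was -0.62 in the quantile-normalized values (limma's adjusted p = 0.00620). The difference was -0.83, -0.18 and -0.35 between arrays numbered 2, 3 and 4, and it was -0.27 in arrays whose titles give the time, and -0.85 in the others. A second, dimmer probe of Cdkn1b had 7.41, 6.73 and 6.58 untreated and 6.44, 6.73, 6.63 and 6.73 with IL2. On this probe only untreated replicate 2 stood above the IL2 arrays, and the log2 fold change was -0.27 (limma's adjusted p = 0.653 over all single-symbol probes). Macrophage and monocyte, B cell, neutrophil and dendritic cell markers had lower means over the same IL2 arrays. The part of these cells in the lower Cdkn1b values was not tested.

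The INK4 inhibitor genes had signals near the middle of all genes, at the 55.9th percentile for Cdkn2c and the 51.9th for Cdkn2d, and the deposited values carry no detection call, so it is unknown whether they lay above background. Cdkn2c was at 7.27, 7.30 and 7.27 in the untreated arrays and 6.73, 7.23, 7.27 and 7.33 with IL2, where IL2 replicate 1 was the low array. Its log2 fold change was -0.14 (SE 0.15, 95% interval -0.48 to 0.20, limma's adjusted p = 0.782), and -0.00055 without IL2 replicate 1. Cdkn2d was at 7.10, 7.23 and 6.56 untreated and 7.10, 6.99, 6.97 and 7.10 with IL2. Untreated replicate 4 was the low array, the log2 fold change of Cdkn2d was 0.078 (SE 0.16, 95% interval -0.28 to 0.44, limma's adjusted p = 0.899), and without untreated replicate 4 it was -0.12. The ratio of Cdkn2d to Cdkn2c was 0.21 higher with IL2 on the log2 scale, with overlapping groups (two-sided exact permutation p = 0.571). Ccnd1, Cdkn2c and Cdkn2d held exactly equal values on at least 2 arrays, as did 53.3% of all probes in the deposited table.

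Rbl2 encodes p130, the pocket protein that represses E2F targets in resting cells. It was at 9.40, 8.80 and 9.04 in untreated replicates 2 to 4 and at 9.24, 9.38, 9.29 and 9.32 with IL2. The IL2 arrays lay close together inside the untreated range, and the log2 fold change was 0.23 (SE 0.14, 95% interval -0.092 to 0.54, limma's adjusted p = 0.583). Its relatives, named after their values were seen, separated between the groups without passing the test. Rb1 had means of 9.89 and 9.25, a log2 fold change of -0.64 (SE 0.14, limma's adjusted p = 0.0597), and Rbl1 had 8.97 and 9.75, a log2 fold change of 0.78 (SE 0.17, limma's adjusted p = 0.0665). Rb1 passed as lower and Rbl1 as higher in the quantile-normalized values (limma's adjusted p = 0.0189 and 0.0295) and in the brighter genes (limma's adjusted p = 0.0320 and 0.0314).

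**Figure D3:**
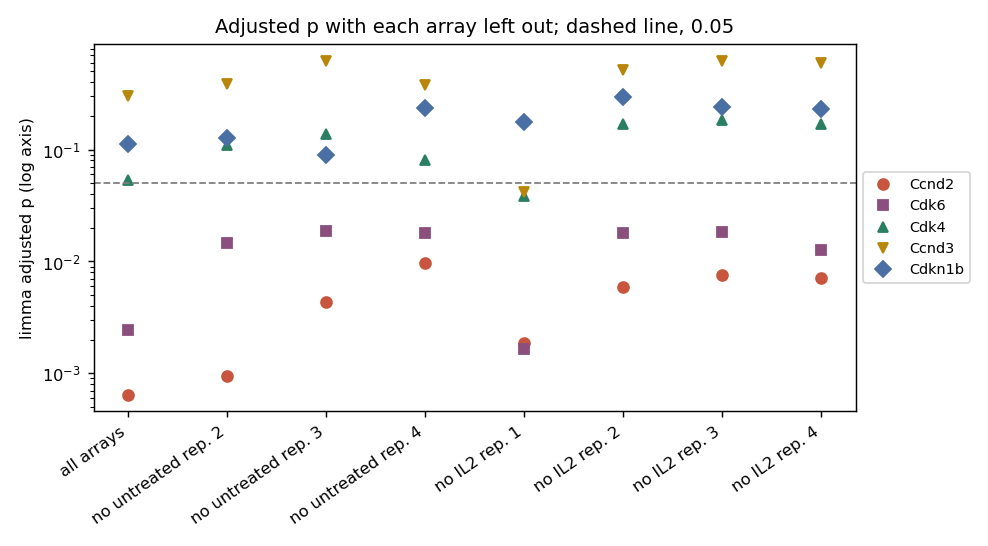
Limma adjusted p (log axis) of 5 genes over all arrays and with each array left out, with a dashed line at 0.05. Ccnd2 (circles) and Cdk6 (squares) lie under the line throughout, Cdk4 and Ccnd3 only without IL2 replicate 1, and Cdkn1b in no case.

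The other genes of the pathway are given by list. Each count stands against the 2.98% of all genes that passed limma's test and the 13.5% with an unadjusted p under 0.05. These shares do not hold under other settings, whose totals over all genes are given near the end. Of 18 genes of the RB and E2F core, 0 passed limma's test, with 6 at an unadjusted p under 0.05 and a median log2 fold change of 0.078. The largest difference was in Tfdp2, an E2F dimer partner, at -0.80 (SE 0.20, limma's adjusted p = 0.0983). E2f1 was at 0.085 and E2f3 at 0.48, both named after their values were seen and not past the test. Rbl1 passed without untreated replicate 2 (0.96, limma's adjusted p = 0.0339).

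Of 22 other G1 cyclins, CDKs and their regulators, 1 fell and 0 rose, with a median of 0.12 and 3 at an unadjusted p under 0.05. The CDKs and regulators of this list are not confined to G1. The gene that fell was Cdc25b, a phosphatase that activates CDKs, from 8.93 ± 0.26 to 8.02 ± 0.13 (SD, n = 3 and 4). Its log2 fold change was -0.91 (SE 0.14, limma's adjusted p = 0.0143), and its groups did not overlap. Cdc25b no longer passed when untreated replicate 2 or 4, or IL2 replicate 2, 3 or 4, was removed (limma's adjusted p from 0.0517 to 0.0705). Without untreated replicate 2, Ccnh passed as higher (0.43, limma's adjusted p = 0.0395; named after its value was seen). Cyclin E and its kinase, which act after the D-type cyclins, did not pass: Ccne1 was at 0.11, Ccne2 at 0.42 and Cdk2 at -0.38 (named after their values were seen).

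Of 27 E2F target genes of S phase, 1 rose and 0 fell, although 25 had a positive log2 fold change, against 45.6% of all genes. The median was 0.19, and 9 had an unadjusted p under 0.05. The list's mean log2 intensity was 7.46 to 7.65 in the untreated arrays and 7.56 to 7.97 with IL2, so the groups overlapped. The gene that rose was Pcna, the sliding clamp of DNA polymerase, from 10.30 ± 0.063 to 10.69 ± 0.039, a log2 difference of 0.39 (SE 0.071, limma's adjusted p = 0.0318). Leaving out an array took this call away in every case but IL2 replicate 1 (limma's adjusted p from 0.0534 to 0.124). Pcna also did not pass in the quantile-normalized values (0.27, limma's adjusted p = 0.118), where Mcm2 was the gene called, or under trend and robust moderation (limma's adjusted p = 0.0786). Without untreated replicate 2 it was Mcm6 that passed (0.86, limma's adjusted p = 0.0499; named after its value was seen). The largest difference of the list was in the helicase gene Mcm2, at 0.81 (limma's adjusted p = 0.107; named after its value was seen). By title style the list's median was 0.35 with the time and 0.020 without it.

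Cdkn1b and Rbl2 are known targets of FOXO factors, which are active in resting lymphocytes. Of 17 other FOXO targets 2 fell and 0 rose, with a median of -0.16 and 6 at an unadjusted p under 0.05. Il7r, the interleukin 7 receptor alpha chain, had log2 means of 9.86 ± 0.17 untreated and 8.14 ± 0.34 with IL2, a difference of -1.71 (SE 0.19, limma's adjusted p = 0.00415). S1pr1, the receptor that guides lymphocytes out of tissues, had 10.52 ± 0.14 and 9.65 ± 0.15, a difference of -0.87 (SE 0.11, limma's adjusted p = 0.00716). Both calls held with each array left out in turn. Klf2 was at -0.23 and Ccng2 at -0.52, named after their values were seen and not past the test. In the quantile-normalized values Btg2, Pik3ip1 and Sesn1 passed as lower too, which made 5 (named after their values were seen). Over all 19752 genes 577 were lower in that fit, against 178 without quantile normalization again.

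Of 18 p53 target genes 1 rose and 0 fell, with a median of 0.14 and 8 at an unadjusted p under 0.05. Ccng1, which encodes cyclin G1, rose from 11.01 ± 0.037 to 11.64 ± 0.12, a log2 difference of 0.63 (SE 0.087, limma's adjusted p = 0.0110), and its call held with each array left out in turn. Without IL2 replicate 1 the count was 5, with Aen, Polk, Tnfrsf10b and Zmat3 added, and without untreated replicate 2 it was 2, with Ei24 added (all named after their values were seen). Over all 19752 genes these fits called 517 and 423 higher, against 410 with all arrays. Mdm2 was at 0.23 (limma's adjusted p = 0.592; named after its value was seen).

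**Figure D4:**
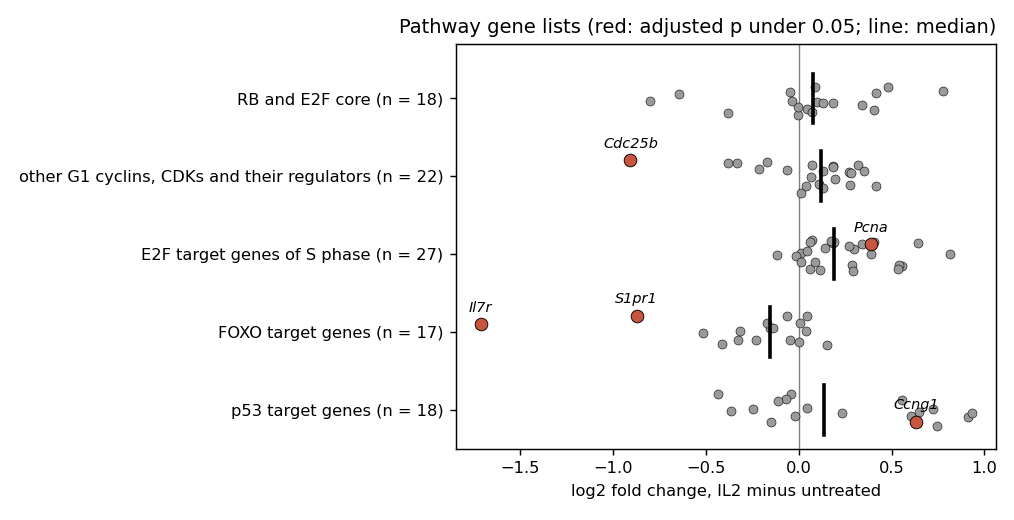
Log2 fold change, IL2 minus untreated (horizontal axis), of each measured gene in 5 lists, with 1 point per gene (red where limma's adjusted p was under 0.05) and a black line at each list's median. The 5 red points are Cdc25b, Pcna, Il7r, S1pr1 and Ccng1, and the medians run from -0.16 for the FOXO targets to 0.19 for the S phase genes.

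The genes whose log2 values followed those of Ccnd2 most closely over the 7 arrays were Gbp5, Gem and Gbp9, each at a Pearson's r of 0.995 to 0.997. For Cdk6 they were Pim2 (r = 0.997), Cish and Plscr1 (both r = 0.994). All 7 points come from the same arrays as the comparison of groups, and most of each correlation is the step between untreated and IL2 arrays. The log2 fold changes were 2.76 for Gbp5, 2.54 for Gem, 1.98 for Gbp9, 2.27 for Pim2, 1.94 for Cish and 1.52 for Plscr1.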

How the data were processed

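The deposited values were intensities on a linear scale, 1 for each probe on each array; the submitters' processing notes name RMA and Affymetrix Power Tools. Their versions, their settings and the set of arrays normalized together are not given in the sources used here. Of 24922 probes, 21425 carried a single gene symbol in the platform annotation, 1399 carried several and 2098 carried none. Values were brought to log2 with no offset and no filter, and the brightest probe by mean over all 7 arrays was kept, which left 19752 genes. Median intensity per array was 121 to 131, and the number of arrays limits the precision. The upper quartile was less even, at 278 to 318 in the untreated arrays and 291 to 350 in the IL2 arrays.

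Groups came from the sample titles. limma 3.58.1 (R 4.3.3) fitted IL2 against untreated over all genes, with eBayes and Benjamini-Hochberg adjustment over all genes at a threshold of 0.05. Ratios of 2 genes were compared with exact permutation tests (scipy 1.17.1). The members and lists were chosen with earlier results of these data known. Named genes were all members, of each list the 3 largest changes past the threshold (or the 1 largest where none passed), and 3 genes nearest in pattern to each member that passed. Other names are marked in the text. The fit was tested on simulated data. Other settings tried were the replicate number or the title style as a block, each title style alone, quantile normalization again, median centring, a filter at the median signal, eBayes with trend and robust, averaging the probes that share a symbol, and leaving out each array. Some listed genes, Bax and Gdf15 among them, were not analysed here.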

Additional observations from a re-analysis of the deposited data

Results flagged for a closer look

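Of 14 groups of 4 IL2 values checked for an array far from the others, 2 were picked out, and chance picks out about 1 in 20 such groups. Cdkn2c in IL2 replicate 1 was at a log2 intensity of 6.73, while the other IL2 arrays were at 7.23 to 7.33. The log2 ratio of Cdkn2d to Cdkn2c in the same array was 0.37, against -0.29 to -0.23 in the other IL2 arrays. Both rest on the same low Cdkn2c value.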

How the results depend on the processing

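Ccnd2 and Cdk6 kept their rise in every fit, and lost the call only over the 3 arrays whose titles leave out the time, where limma called 0 genes either way (2630 at an unadjusted p under 0.05). There 1 untreated array was assumed to vary like the IL2 arrays. The number of members higher was then 0. It was 2 to 4 with 1 array left out. A block for the replicate number made it 4, with Ccnd3 (limma's adjusted p = 0.0253) and Cdk4 (0.0445) added. IL2 replicate 1 has no untreated partner and so does not enter the difference in that fit, and leaving out that array with no block also gave 4. After quantile normalization again 1 member, Cdkn1b, was lower. Signs turned for Cdkn2c (0.017 in arrays whose titles give the time), for Cdkn2d (-0.054) and Rbl2 (-0.089) over the other arrays, and for Cdkn2d with 1 array left out (-0.12 to 0.21). The ratios of pairs of genes kept their direction after quantile normalization again and with each array left out. The planned ratio of Cdkn1a to Cdkn1b was not run.

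Over all genes, quantile normalization again gave 694 higher and 577 lower, so the share of higher calls was 54.6% in place of 69.7%, and the arrays whose titles give the time gave 81 and 22. With 1 array left out the counts were 134 to 517 higher and 65 to 152 lower. The replicate block gave 553 higher and 184 lower, and the title style as a block 579 and 247. Centred arrays gave 473 and 177, and trend and robust moderation 396 and 182. The filter at the median signal kept 9876 genes, of which 578 were higher and 217 lower. Dimmer genes of the S phase, RB core and p53 lists were not among those kept, so fewer genes of these lists were tested there. In the lists, the arrays whose titles give the time gave 0 calls for the S phase genes higher and the FOXO targets lower. They also gave 0 for the other cyclins, CDKs and regulators lower and for the p53 targets higher. The S phase genes higher were 2 with the replicate block, Mcm2 and Rfc4 (named after their values were seen). Pcna had limma's adjusted p = 0.0884 in that fit. The count was 3 in genes of at least the median signal, and 0 under trend and robust moderation. FOXO targets lower were 5 after quantile normalization again. RB and E2F core genes were 1 higher and 2 lower with the title style as a block, after quantile normalization again, and in genes of at least the median signal, and 2 lower with the replicate block. Those lower were Rb1 and Tfdp2 each time. The gene higher was Tfdp1 with the title style as a block (named after its value was seen) and Rbl1 in the other fits. The p53 targets higher were 5 with the replicate block, after quantile normalization again (with 1 lower) and in genes of at least the median signal, 4 with the title style as a block and 2 with centred arrays. With 1 array left out the ranges were 0 to 1 for S phase genes, RB core genes and the other cyclins, CDKs and regulators, and 1 to 5 for p53 targets. The cause of these moves was not tested.

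The replicate numbers do not pair the arrays by the labels. Deviations from the group mean correlated at 0.46 for number 2, -0.30 for number 3 and 0.31 for number 4, and untreated replicate 3 correlated best with IL2 replicate 1 (0.45).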
